A study of Zea mays with 12 samples.

Results

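To ask what the loss of *tsh4* adds when *tsh1* is already lost, bract primordia of *tsh1 tsh4* double mutants were compared with those of *tsh1* single mutants across all 20168 genes with expression values. The comparison uses 6 of the 12 libraries, 3 of *tsh1 tsh4* and 3 of *tsh1*. All of these plants carry *tsh1-ref*, an allele with a *Mutator* insertion and an adjoining deletion, and by their labels they differ in *tsh4-rm*, an allele from a *Mutator* population that is present in *tsh1 tsh4* and not in *tsh1*. The same loss was measured without the *tsh1* lesion in the other 6 libraries, 3 of *tsh4* and 3 of the inbred line B73, which serves as the wild type. Each allele had been crossed repeatedly into B73, so donor chromatin can remain linked to it. Cells were taken by laser microdissection from ear bract primordia at a stage when the bract ridge was visible and the meristem beside it was not, from greenhouse plants without treatment, and RNA was amplified before sequencing. The libraries are labelled as biological replicates, and no label says how many plants each one holds.

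A bract is a leaf that subtends a branch or a flower, and in maize the bracts that subtend inflorescence branches and spikelets stop growing soon after they form a ridge. *tasselsheath1* (*tsh1*) encodes a GATA zinc finger transcription factor and *tasselsheath4* (*tsh4*) an SBP-box transcription factor. Both genes are expressed in the suppressed bract, and bracts grow out in mutants of each. SBP-box factors bind DNA through a conserved domain, and many of them are restrained by the microRNA miR156 and control phase change, branching, and the boundaries of lateral organs.

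Libraries held 49481413 to 110703826 reads on genes, with 80693811, 57880634, and 61451736 in *tsh1 tsh4* and 87573173, 55225481, and 49481413 in *tsh1*. Values are CPM, read counts scaled to library size and normalized between libraries. A level of 3 reads, used here as the floor of detection, corresponded to 0.0265 to 0.0651 CPM depending on the library and covers counting error only. Correlations of log2 values were 0.970 to 0.991 between libraries of the same genotype and 0.945 to 0.985 between genotypes. In tissue taken by capture, fewer cells of a type and less RNA per cell cannot be told apart. The bract marker *zyb15*, listed as *yabby15*, was at 1391 to 1745 CPM in *tsh1 tsh4* and 1347 to 1804 CPM in *tsh1*. Markers of neighboring cells were not all level. The summed levels of *ba1* and *baf1*, which mark the boundary of the axillary meristem, were 47.5 to 71.4 CPM in *tsh1 tsh4* and 110 to 124 CPM in *tsh1*, without overlap, and 1 of these 2 genes passed the test. The sum of 4 *KNOX* genes of the meristem was 250 to 436 CPM in *tsh1 tsh4* and 345 to 525 CPM in *tsh1*, with overlap, and 1 of them, *gnarley1*, passed the test. The sum of *td1*, listed as *KIN5*, and *fea2*, which act in meristem size control, was 167 to 304 CPM in *tsh1 tsh4* and 152 to 218 CPM in *tsh1*. The floral MADS-box gene *si1*, listed as *MADS11*, was near the floor in both, at 0.013 to 0.095 CPM in *tsh1 tsh4* and 0.087 to 0.278 CPM in *tsh1*. What part a different share of captured cells has in the other changes was not tested.

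Transcripts of *tsh4* (GRMZM2G307588, on chromosome 7) were strongly reduced by the second mutation but not absent. They were at 76.6, 43.3, and 60.4 CPM in *tsh1 tsh4*, against 822, 1359.7, and 1007 CPM in *tsh1*. The means were 60.1 ± 16.7 CPM in *tsh1 tsh4* and 1063 ± 273 CPM in *tsh1* (SD, n = 3 each), so that 5.65% of the *tsh1* level remained. This is a log2 fold change of -4.15 ± 0.23 (SE; limma with Benjamini-Hochberg adjusted p = 7.51e-09), and the exact two-sided permutation test of 3 against 3 libraries gave 0.1, the smallest p it can give. The fold change in *tsh4* against B73 was the same, at -4.15, with 65.5, 81.1, and 74.5 CPM in *tsh4* and 1553, 1359, and 1059 CPM in B73. The level of *tsh4* therefore separated the libraries as labelled in both pairs of genotypes, although the row of the gene was known from an earlier reading of these data. The gene table used for names lists this gene as *sbp6*.

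Transcripts of *tsh1* (GRMZM2G325850, unnamed in the gene table) were under 1 CPM in every library with *tsh1-ref*. Levels were 0.502, 0.458, and 0.604 CPM in *tsh1 tsh4*, against 0.810, 0.401, and 0.369 CPM in *tsh1*, with a log2 fold change of 0.05 ± 0.27 (limma, adjusted p = 1). The gene table does not name this row, so its identity rests on the identifier alone. In plants with an intact *tsh1* gene the levels were 25.3, 18.7, and 23.6 CPM in *tsh4* and 89.6, 60.7, and 52.1 CPM in B73, a log2 fold change of -1.55.

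**Figure D1:**
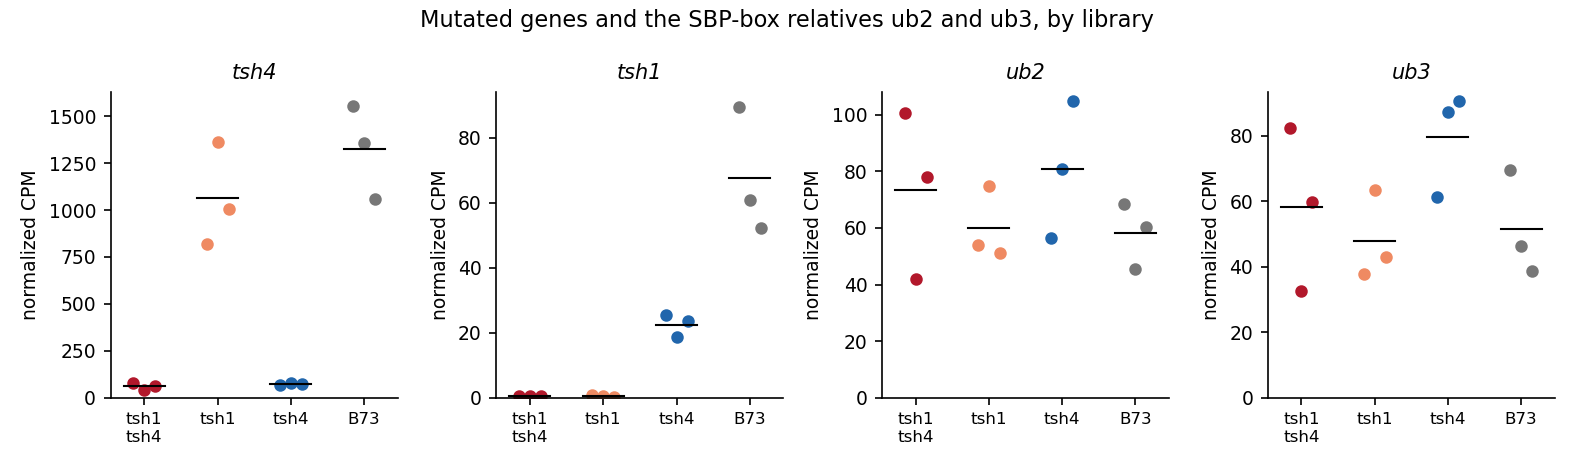
Normalized CPM of *tsh4*, *tsh1*, *ub2*, and *ub3* in each library of *tsh1 tsh4*, *tsh1*, *tsh4*, and B73, with 1 point for each library and a line at the mean of the genotype. *tsh4* is at 43.3 to 76.6 CPM in *tsh1 tsh4* and 822 to 1359.7 CPM in *tsh1*, while the libraries of these genotypes overlap for *ub2* and *ub3*.

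The closest relatives of *tsh4*, the SBP-box genes *ub2* and *ub3* that act with it in inflorescence branching, did not pass the test. *ub2* was at 101, 41.9, and 78.0 CPM in *tsh1 tsh4* and 54.1, 74.8, and 51.0 CPM in *tsh1*. *ub3* was at 82.5, 32.7, and 59.7 CPM in *tsh1 tsh4* and 37.7, 63.3, and 43.0 CPM in *tsh1*, and the log2 fold change was 0.22 for both genes. Libraries overlapped for each gene, with *tsh1 tsh4* replicate 2 lowest of all 6. Among 20 SBP-box genes, 1 was up-regulated and 2 were down-regulated, *tsh4* included, with a median log2 fold change of 0.08 where the median over all genes was -0.01. The up-regulated member was *tga1*, a domestication gene that governs the casing of the maize kernel. It was at 20.4, 7.66, and 12.4 CPM in *tsh1 tsh4* and at 2.78, 3.42, and 2.12 CPM in *tsh1*, a log2 fold change of 2.16 ± 0.31 (limma, adjusted p = 0.00031). *sbp2* fell to 0.025, 0.063, and 0.138 CPM in *tsh1 tsh4*, against 1.44, 1.29, and 0.694 CPM in *tsh1*, a log2 fold change of -2.82. The call of *sbp2* was lost at a pseudocount of 1 (-0.98). Both genes changed similarly in *tsh4* against B73, by 2.24 for *tga1* and -2.49 for *sbp2*.

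Over all 20168 genes, 727 differed between *tsh1 tsh4* and *tsh1* (3.6%) by limma (adjusted p of 0.05 or less, and a log2 fold change of 1 or more in either direction) on the log2(CPM + 0.1) scale, which understates changes of weakly expressed genes. Of these differentially expressed genes (DEGs), 424 were up-regulated in *tsh1 tsh4* (2.1%) and 303 were down-regulated (1.5%). The 6 libraries separated completely by genotype for 723 of the 727 DEGs, compared with 11.9% of all genes. DEGs were selected on these same libraries, so this separation is no further evidence for them. Of the DEGs, 504 averaged 1 CPM or more. For 37 up-regulated genes every *tsh1* library was at or under the floor of 3 reads, and for 14 down-regulated genes every *tsh1 tsh4* library was. Up-regulated genes remained more numerous when any 1 library was left out, but the counts moved, with 365 up-regulated and 338 down-regulated genes without *tsh1 tsh4* replicate 1, and 450 up-regulated and 244 down-regulated genes without *tsh1 tsh4* replicate 2. The fewest calls, 316 up-regulated and 254 down-regulated, came without *tsh1 tsh4* replicate 3. With a pseudocount of 1 there were 385 DEGs, of which 228 were up-regulated. Of 2004 genes with a name in the gene table, 61 were up-regulated and 41 were down-regulated.

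Many of the genes that responded to the loss of *tsh4* in the *tsh1* background also responded in B73. The comparisons share no libraries, but the mutants of both carry *tsh4-rm* with any donor DNA linked to it. In *tsh4* against B73, 768 genes were called (3.81%), 411 up-regulated (2.04%) and 357 down-regulated (1.77%). There were 394 genes called in both, which is 54.2% of the DEGs in the *tsh1* background and 51.3% of those in B73, and 389 of them changed in the same direction, 212 upward and 177 downward. Of the 424 genes up-regulated in *tsh1 tsh4* against *tsh1*, 384 (90.6%) also had positive values in *tsh4* against B73, and the median log2 fold change was 1.72 in the *tsh1* background and 1.18 in B73. Of the 303 down-regulated genes, 287 (94.7%) had negative values in *tsh4* against B73, with medians of -1.65 and -1.36. Read in the other direction, genes called in *tsh4* against B73 had their lower medians in the *tsh1* background, at 1.22 against 1.61 for genes up-regulated in *tsh4* and -1.16 against -1.62 for genes down-regulated in *tsh4*. Each set of genes thus had the larger median in the comparison that selected it. Over all genes, 62.7% had the same direction in both comparisons and the Pearson correlation of fold changes across genes was 0.625, a description across genes that are not independent replicates.

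The difference between the responses in the *tsh1* background and in B73 was tested directly as an interaction. It passed for 58 genes (0.288%) at an adjusted p of at most 0.05 by limma, 36 of them with the more positive change in the *tsh1* background and 22 with the more negative one. At an unadjusted p of at most 0.05 there were 1073 genes (5.32%), close to the fraction of 0.05 that this cutoff gives on average when no gene differs. Of the 333 genes called only in the *tsh1* background, 28 passed the interaction test, and of the 374 called only in B73, 19 did, so for the remainder a difference between the backgrounds was not shown. A further 9 genes were called in both backgrounds and passed, and 2 were called in neither.

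**Figure D2:**
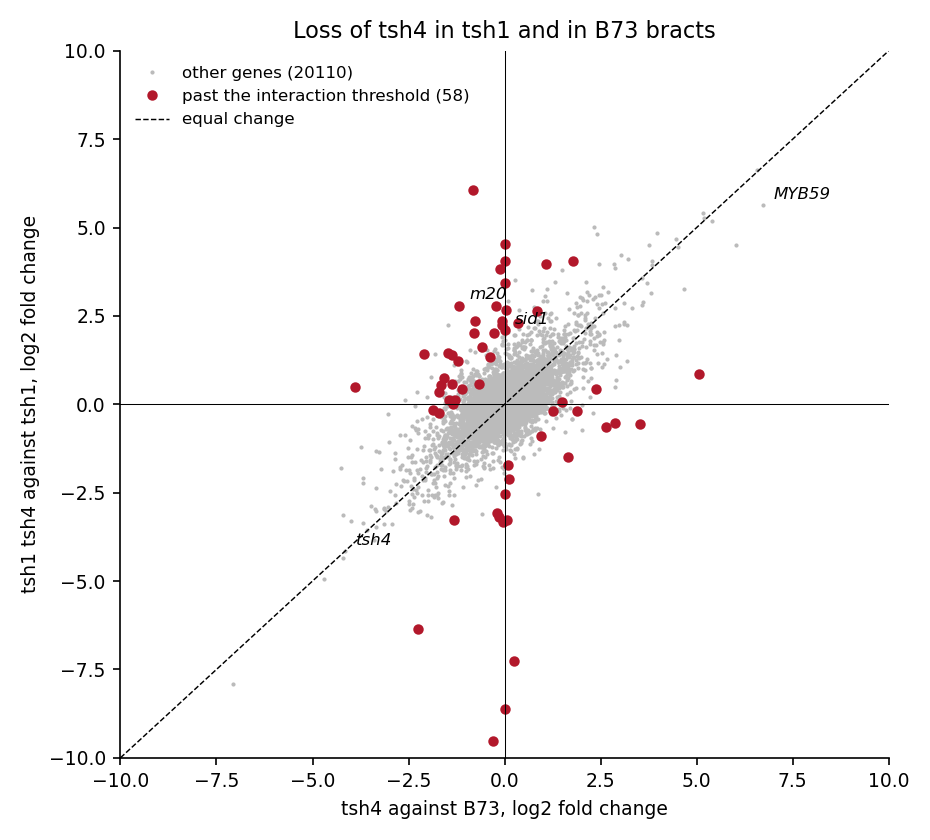
Log2 fold change of each of the 20168 genes in *tsh1 tsh4* against *tsh1* (vertical axis) and in *tsh4* against B73 (horizontal axis), with the line of equal change dashed. Red points are the 58 genes past the interaction threshold, and *tsh4* itself lies at -4.15 in both comparisons.

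Gene families that direct leaf and inflorescence development were examined as the gene table names them, a set that does not hold every member of a family. Most of their members did not pass the test. No gene was called among 7 *YABBY* genes, which promote expansion of the leaf blade, 15 growth-regulating factors, 4 *GATA* genes, 18 auxin response factors, 10 response regulators of cytokinin signaling, 10 cyclins, 7 core histones, 10 cellulose synthases, or 28 ribosomal proteins. Between 1 and 5 members were called in the SBP-box, *TCP*, *KNOX*, MADS-box, NAC, Aux/IAA, AP2/ERF, TIFY, aquaporin, and bHLH families. The aquaporin and bHLH groups were assembled after values had been seen. With 3.6% of all genes called, a single call in a family of 20 is near the background. None of 7 expansins, which loosen cell walls, was called, with 6 of them above 0 and a median of 0.59. Laccases, which act on lignin, had 2 of 3 members called lower, *Laccase-13* (-1.70) and *lac5* (-1.41), but both were at under 1 CPM in every library, and each call was lost when any of 4 of the 6 libraries was left out (-1.59 to -1.46 for *Laccase-13* and -1.36 to -1.34 for *lac5*). *plt2*, 1 of 3 genes grouped as lipid transfer proteins, was at 11.6, 4.90, and 9.11 CPM in *tsh1 tsh4* and 0.604, 0.698, and 0.976 CPM in *tsh1*, a log2 fold change of 3.26. *wox2A*, the only one called of 7 *WUSCHEL*-related genes, had a log2 fold change of -1.57 at under 1 CPM, and *EREB71*, the only AP2/ERF gene called lower of 25, had one of -1.72. The call of *wox2A* was lost without *tsh1 tsh4* replicate 2 (-1.52), *tsh1 tsh4* replicate 3 (-1.54), or *tsh1* replicate 1 (-1.19), and that of *EREB71* without *tsh1* replicate 3 (-1.57).

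**Figure D3:**
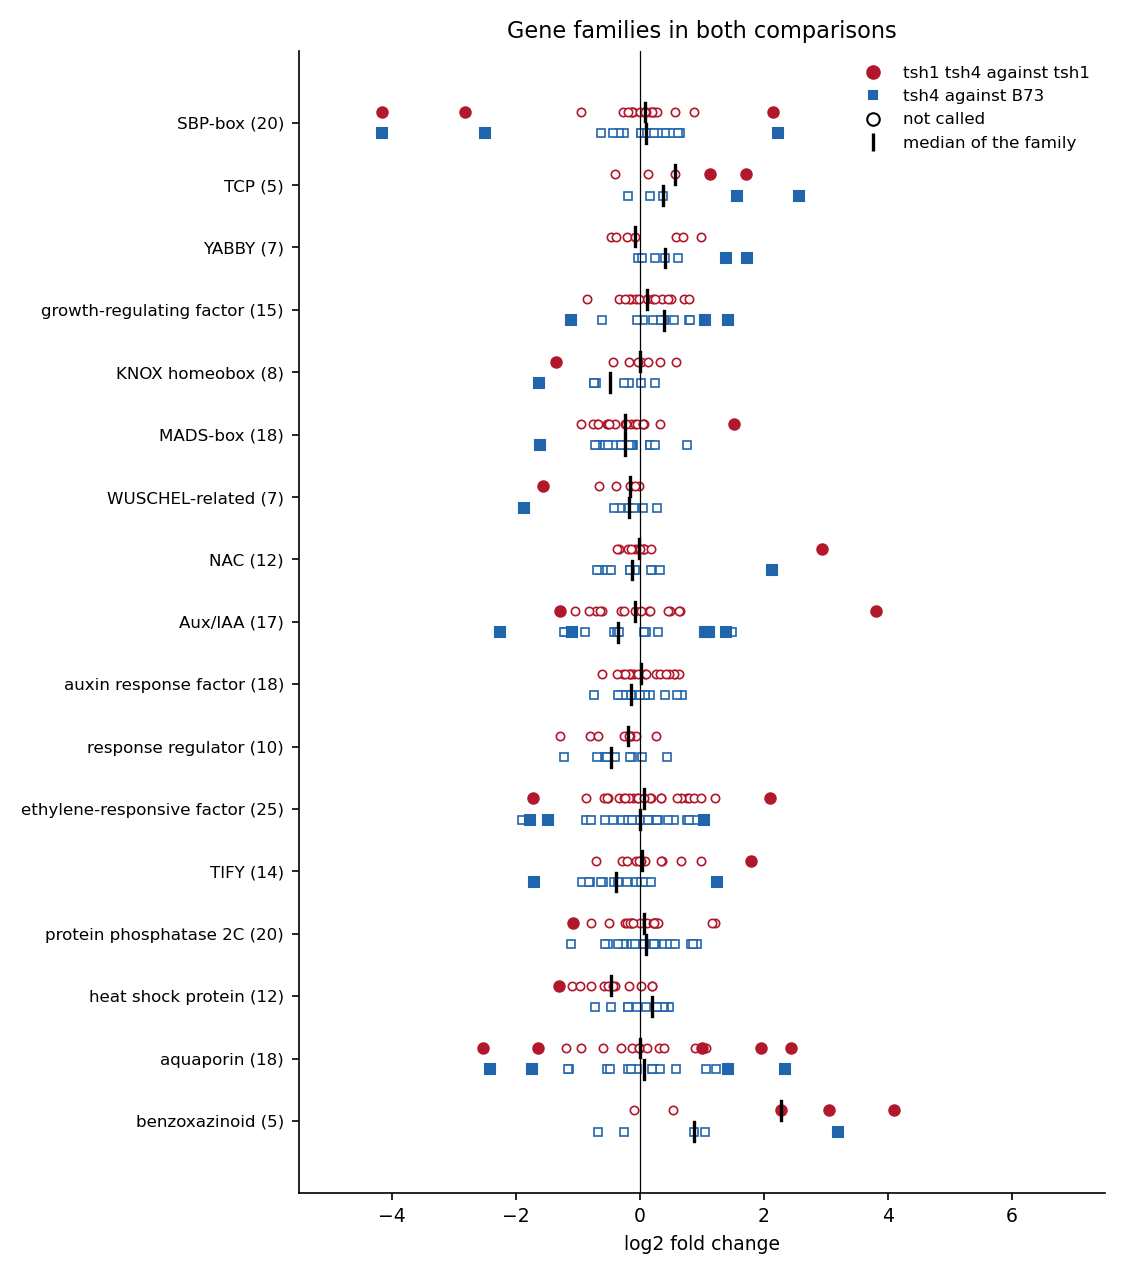
Log2 fold changes of the members of 17 gene families in *tsh1 tsh4* against *tsh1* (red circles) and in *tsh4* against B73 (blue squares). The aquaporin and benzoxazinoid groups were assembled after values had been seen. Filled symbols are called genes, open symbols are genes not called, bars are family medians, and the number of genes is given beside each name; the YABBY and growth-regulating factor rows hold filled symbols only for *tsh4* against B73.

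Of 10 maize gene names taken from the study's account of leaf expansion, meristem initiation, the ligule boundary, and auxin, 6 could be matched. Since the study chose them on these samples, they are no independent evidence. The account names further genes outside these 10, among them *TCP5*, which was up-regulated here, and *TCP8*, which was not called. Of the 6 matched genes, none was up-regulated and 2 were down-regulated in *tsh1 tsh4* against *tsh1*. *liguleless2* (*lg2*) encodes a bZIP factor needed at the boundary between leaf blade and sheath. It was at 13.2, 5.53, and 14.3 CPM in *tsh1 tsh4*, against 33.2, 45.1, and 39.0 CPM in *tsh1*, with a log2 fold change of -1.92 ± 0.29 (limma, adjusted p = 0.000557). The levels were 28.9, 16.7, and 22.9 CPM in *tsh4* and 92.8, 68.7, and 67.5 CPM in B73, with a log2 fold change of -1.75, so that *tsh1 tsh4* held the lowest libraries of the 12. *barren stalk fastigiate1* (*baf1*), which is needed to start axillary meristems, fell to 7.91, 9.52, and 11.7 CPM in *tsh1 tsh4*, against 27.3, 28.2, and 17.2 CPM in *tsh1*, by 1.29 on the log2 scale. *barren stalk1* (*ba1*), which acts in the same process, was at 45.6, 38.0, and 59.7 CPM in *tsh1 tsh4* and 87.5, 96.3, and 93.2 CPM in *tsh1*. Its libraries did not overlap and its adjusted p was 0.0143, but the log2 fold change of -0.97 ± 0.22 is just under the size required. The fold changes of *ba1* and *baf1* are also those of the boundary markers, whose source in the captured tissue was not tested.

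The other matched genes, *zyb14*, *yab3*, and *zar1*, had been up-regulated in *tsh4* against B73 but did not pass both thresholds here. The *YABBY* gene *zyb14* was at 269.9, 157, and 169 CPM in *tsh1 tsh4*, against 97.6, 91.0, and 103 CPM in *tsh1*. All *tsh1 tsh4* libraries were higher, with a log2 fold change of 0.99 ± 0.22 (limma, adjusted p = 0.0141), which is again just under the size required. It was at 133, 123, and 140.3 CPM in *tsh4* and 28.3, 52.9, and 41.9 CPM in B73, and the interaction of -0.73 did not pass (limma, adjusted p = 0.833). *yab3* had log2 fold changes of 0.70 in the *tsh1* background and 1.39 in B73. *zar1*, a maize relative of the *Arabidopsis* organ size gene *ARGOS*, was at 2.97, 1.29, and 1.12 CPM in *tsh1 tsh4* and 1.53, 2.37, and 1.5 CPM in *tsh1*. Its log2 fold changes were -0.10 in the *tsh1* background and 1.71 in B73, with an interaction of -1.81 that did not pass (limma, adjusted p = 0.254).

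Genes known to shape branching and lateral organs were among the DEGs, named here after their values had been seen. *grassy tillers1* (*gt1*), a homeodomain leucine zipper gene that represses the growth of lateral buds and floral organs, was at 101, 99.9, and 104 CPM in *tsh1 tsh4*, against 19.4, 27.3, and 32.2 CPM in *tsh1*. The log2 fold change was 1.98 ± 0.18 (limma, adjusted p = 3.24e-06), and the spread among *tsh1 tsh4* libraries was small. Levels were similar in *tsh4*, at 103, 97.9, and 103 CPM, against 32.4, 31.1, and 41.6 CPM in B73. *ramosa1* (*ra1*), a zinc finger gene that limits branching, was at 2.23, 2.45, and 1.16 CPM in *tsh1 tsh4* and 0.399, 0.401, and 0.651 CPM in *tsh1*, a log2 fold change of 1.77. This call was lost without *tsh1 tsh4* replicate 2 (1.58, limma adjusted p = 0.0619) and without *tsh1* replicate 1 (1.67, limma adjusted p = 0.0547), and at a pseudocount of 1 (0.96). *ramosa3* (*ra3*), a trehalose phosphate phosphatase of the same branching pathway, moved the other way. It fell to 5.67, 4.11, and 4.93 CPM in *tsh1 tsh4*, against 12.7, 12.6, and 11.4 CPM in *tsh1*, by 1.31 on the log2 scale.

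*terminal ear1* (*te1*), an RNA-binding regulator of leaf initiation, fell to 46.9, 55.8, and 60.3 CPM in *tsh1 tsh4*, against 110.4, 121, and 109 CPM in *tsh1*. Its log2 fold change of -1.06 became -0.96 without *tsh1 tsh4* replicate 1, under the size required. The *KANADI* gene *milkweed pod1* (*mwp1*), which acts in leaf polarity, was at 24.4, 41.1, and 52.7 CPM in *tsh1 tsh4* and 93.9, 75.1, and 74.8 CPM in *tsh1*, a log2 fold change of -1.11. The call of *mwp1* was lost without *tsh1 tsh4* replicate 1 (-0.80), without *tsh1* replicate 1 (-0.998, limma adjusted p = 0.0968), and without an intensity trend in the fit. Among 8 *KNOX* genes, some of which maintain indeterminate cells, *gnarley1*, one of the meristem markers above, was down-regulated. It was at 41.4, 71.1, and 89.5 CPM in *tsh1 tsh4* and 205, 113, and 186 CPM in *tsh1*. Its log2 fold change of -1.34 lost its call without *tsh1* replicate 1 (-1.18, limma adjusted p = 0.0548). The other *KNOX* genes did not pass, with *knotted1* (listed as *KN-1*) at 0.32 and *lg3* at 0.13 on the log2 scale. The zinc finger homeodomain gene *ZHD13* fell to 0.401, 1.01, and 0.5 CPM in *tsh1 tsh4*, against 2.83, 3.59, and 2.56 CPM in *tsh1*.

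*TCP*, MADS-box, and *OVATE* family genes added further changes. The *TCP* genes *TCP5* and *TCP30* were both called up-regulated among 5 members. The study names *TCP5* and *TCP8* among *TCP* genes that rose in these samples, so they are no independent evidence, and *TCP8* had a log2 fold change of 0.13 that did not pass. *TCP5* was at 7.96, 6.51, and 8.07 CPM in *tsh1 tsh4* and 2.83, 2.86, and 4.73 CPM in *tsh1*, with a log2 fold change of 1.13 that became 0.95 at a pseudocount of 1. The call of *TCP30* (1.71) was fragile, as it was lost when any of the 3 *tsh1 tsh4* libraries was left out (1.59 to 1.94), without *tsh1* replicate 1 (1.76) or 3 (1.12), and, at its value of 1.71, without *tsh4* replicate 2 or 3 or B73 replicate 2 or 3. The *OVATE* family genes *OFP24* and *OFP29*, whose relatives in other plants act as repressors of growth-related transcription, changed in opposite directions. *OFP24* was at 14.8, 20.5, and 18.8 CPM in *tsh1 tsh4* and 4.25, 1.24, and 1.89 CPM in *tsh1*, a log2 fold change of 2.99. *OFP29* was at 3.26, 3.62, and 4.55 CPM in *tsh1 tsh4* and 8.62, 9.14, and 10.8 CPM in *tsh1*, a log2 fold change of -1.31. Both changed the same way in *tsh4* against B73, by 2.29 and -2.12. *ZCN14*, of the family that includes the florigen *FLOWERING LOCUS T* of *Arabidopsis*, rose to 1.74, 1.80, and 2.57 CPM in *tsh1 tsh4*, against 0.290, 0.488, and 0.325 CPM in *tsh1*.

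**Figure D4:**
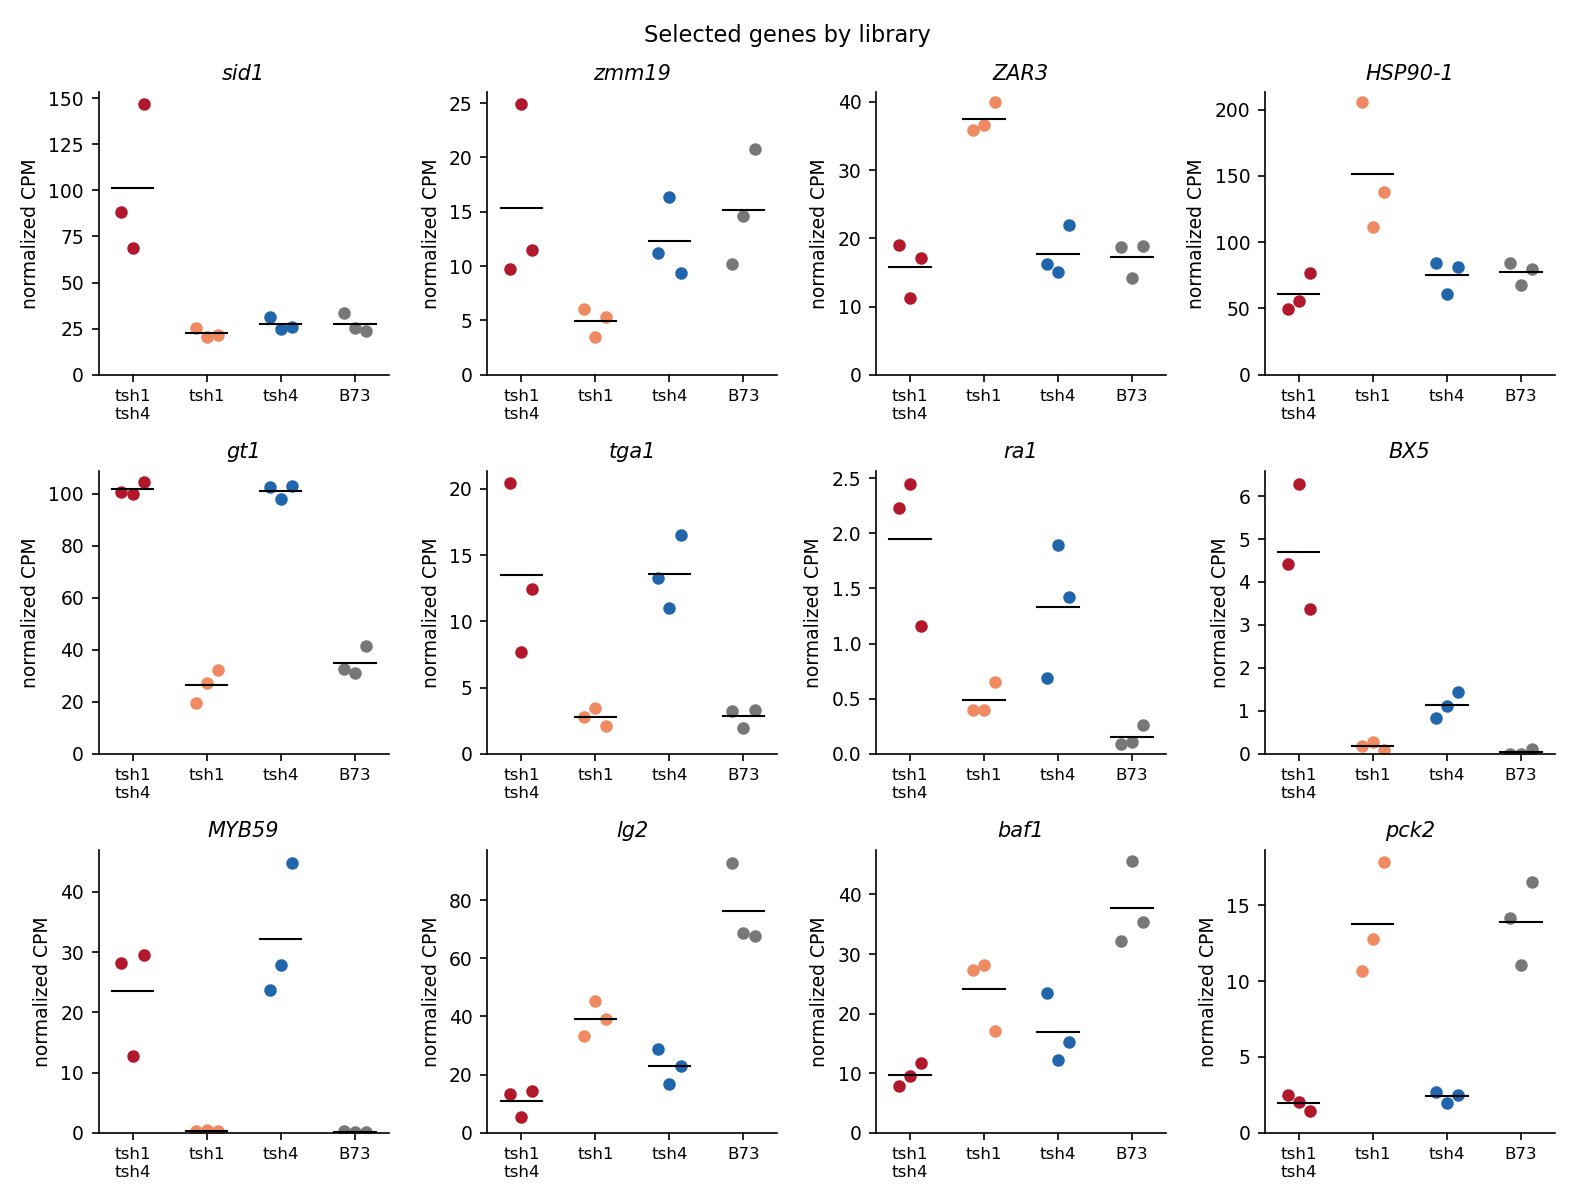
Normalized CPM of 12 selected genes in each library of *tsh1 tsh4*, *tsh1*, *tsh4*, and B73, with a line at the mean of the genotype and a separate linear axis for each gene. In the top row, *sid1* is high in *tsh1 tsh4*, *zmm19* is low in *tsh1*, and *ZAR3* and *HSP90-1* are high in *tsh1*. The other 8 genes differ in the same direction in both comparisons.

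For some DEGs the *tsh1* single mutant was the genotype that stood apart. All 3 *tsh1* libraries lay above or all lay below the other 9 libraries for 133 of the 727 DEGs, and the *tsh1 tsh4* libraries did so for 220. DEGs were selected for a difference between these genotypes, which favors such patterns, and the share over all genes was not computed. *ZAR3*, listed in the *ARGOS* group with *zar1*, was at 19.0, 11.3, and 17.1 CPM in *tsh1 tsh4*, against 35.9, 36.5, and 40.0 CPM in *tsh1*. It was at 16.2, 15, and 22 CPM in *tsh4* and 18.8, 14.2, and 18.8 CPM in B73, so that the level in *tsh1 tsh4* overlapped that in B73 while *tsh1* did not. Its log2 fold change was -1.27 ± 0.21 in the *tsh1* background and 0.03 in B73, and the interaction of -1.30 did not pass (limma, adjusted p = 0.0987). The chaperone gene *HSP90-1* was at 49.9, 55.4, and 77.0 CPM in *tsh1 tsh4* and 206, 112, and 138 CPM in *tsh1*, a log2 fold change of -1.30. It was at 84.0, 60.6, and 81.2 CPM in *tsh4* and 84.1, 67.6, and 80.0 CPM in B73, and the interaction of -1.25 did not pass (limma, adjusted p = 0.171). It was the only called gene of 12 heat shock proteins, whose median was -0.47 in the *tsh1* background and 0.19 in B73.

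Of 18 listed MADS-box genes, *zmm19*, the gene of the *tunicate1* locus whose misexpression encloses kernels in leafy glumes, was the only one called. The list did not hold *m20*, which is named like several of its members and was also called, with a log2 fold change of 2.79. *zmm19* was at 9.72, 25, and 11.5 CPM in *tsh1 tsh4*, against 6.08, 3.51, and 5.33 CPM in *tsh1*, a log2 fold change of 1.52 ± 0.34. Levels were 11.2, 16.3, and 9.37 CPM in *tsh4* and 10.2, 14.7, and 20.8 CPM in B73, so that *tsh1* was the lowest genotype. The call was lost without *tsh1 tsh4* replicate 2 (1.11, limma adjusted p = 0.0636) and without *tsh1* replicate 2 (1.29, limma adjusted p = 0.0595), and the interaction of 1.80 did not pass (adjusted p = 0.211). *thi1-2*, a gene of thiamine biosynthesis, was at 195, 144, and 169 CPM in *tsh1 tsh4* and 27.6, 49.6, and 54.6 CPM in *tsh1*, a log2 fold change of 1.99. Its levels were 179.8, 121, and 183 CPM in *tsh4* and 101, 101, and 105 CPM in B73. The *tsh1* libraries were below all others, and the change in B73 was 0.63, with an interaction of 1.36 (limma, adjusted p = 0.132).

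Of 17 Aux/IAA genes, which encode repressors of auxin signaling, *IAA12* was up-regulated and *AUX17* was down-regulated, and the family median was -0.08. *IAA12* was at 2.22, 1.77, and 2.07 CPM in *tsh1 tsh4* and 0.109, 0.035, and 0.022 CPM in *tsh1*, a log2 fold change of 3.81. It was at 0.156, 0.038, and 0.527 CPM in *tsh4* and at 0 in every B73 library, so that it was above 1 CPM in *tsh1 tsh4* alone. The interaction of 2.32 did not pass (limma, adjusted p = 0.238). *AUX17* fell to 13.2, 12.8, and 18.7 CPM in *tsh1 tsh4*, against 53.3, 29.9, and 29.4 CPM in *tsh1*. *GH3*, of the family that conjugates auxin to amino acids, was at 3.19, 6.62, and 7.81 CPM in *tsh1 tsh4* and 1.96, 1.19, and 1.65 CPM in *tsh1*, a log2 fold change of 1.75. The study reports a gene of this family, *GH3.1*, as lower in *tsh* mutants than in the wild type. Whether that is the gene listed here was not settled. The *YUCCA* genes of auxin biosynthesis had a median of 1.26, with 1 of 3 called. The called gene, *Yucca6*, was at 1.82, 0.774, and 1.34 CPM in *tsh1 tsh4* and 0.169, 0.523, and 0.325 CPM in *tsh1*. Its log2 fold change of 1.70 lost its call without *tsh1 tsh4* replicate 1 (1.44), *tsh1 tsh4* replicate 3 (1.64), or *tsh1* replicate 1 (1.38). Of the others, *spi1* was at 1.26 (limma, adjusted p = 0.0667) and *Yucca2* at -0.29. No gene was called among 18 auxin response factors and 4 auxin efflux carriers.

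Single genes of hormone synthesis, named after their values had been seen, included *acco20* and *aos1*. *acco20*, which encodes an ACC oxidase of the final step of ethylene synthesis, was at 12.9, 17.1, and 22.8 CPM in *tsh1 tsh4*, against 0.737, 0.925, and 0.802 CPM in *tsh1*, a log2 fold change of 4.23 ± 0.29 (limma, adjusted p = 1.05e-07). It also rose in *tsh4* against B73, by 3.02. *aos1*, an allene oxide synthase of the jasmonate pathway, was at 5.29, 2.23, and 2.55 CPM in *tsh1 tsh4* and 0.363, 0.802, and 0.412 CPM in *tsh1*, a log2 fold change of 2.43. *TIFY1* was the only one called of 14 genes of the family that holds the JAZ repressors of jasmonate signaling, and it rose to 12.1, 12.2, and 15.1 CPM in *tsh1 tsh4*, against 4.13, 4.08, and 2.97 CPM in *tsh1*. In the opposite direction, *lox1* was the only one called of 6 lipoxygenases. It was at 1.04, 0.442, and 0.862 CPM in *tsh1 tsh4* and 1.58, 6.45, and 3.06 CPM in *tsh1*, a log2 fold change of -1.96 that lost its call without *tsh1 tsh4* replicate 2 (-1.64, limma adjusted p = 0.0531). Of 8 abscisic acid receptors of the PYL family none was called, with the lowest log2 fold change, -1.19, in *PYL5*. The study reports a maize ortholog of *PYL5* as lower in *tsh* mutants than in the wild type, and whether it is this gene was not settled. Of 20 protein phosphatases 2C, *PP2C17* was down-regulated with a log2 fold change of -1.08, which became -0.91 without *tsh1 tsh4* replicate 2. The *GRAS* family gene *GRAS19* rose to 36.3, 15.8, and 31 CPM in *tsh1 tsh4*, against 7.43, 6.91, and 7.70 CPM in *tsh1*.

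Benzoxazinoids are defense compounds of young grass tissue. Of 5 genes of their pathway, a group assembled after *BX5* had been seen among the DEGs, 3 were up-regulated. *BX5* was at 4.43, 6.27, and 3.38 CPM in *tsh1 tsh4* and 0.181, 0.279, and 0.087 CPM in *tsh1*, a log2 fold change of 4.1 ± 0.38 (limma, adjusted p = 3.65e-06). *BX4* was at 1.15, 2.67, and 0.862 CPM in *tsh1 tsh4* and 0.302, 0, and 0.043 CPM in *tsh1*, a log2 fold change of 3.06. *BX3* was at 1.1, 2.31, and 0.845 CPM in *tsh1 tsh4* and 0.544, 0.209, and 0.022 CPM in *tsh1*. All of these encode cytochrome P450 enzymes of successive steps, are placed next to each other on chromosome 4, and resemble each other in sequence, so reads may be shared among them. The call of *BX3* (2.27) was lost without *tsh1 tsh4* replicate 2 (1.88), without *tsh1* replicate 3 (1.65), and at a pseudocount of 1 (0.92). The glucosyltransferase genes *bx8* and *bx9*, which act later, were more highly expressed and were not called, with log2 fold changes of 0.54 and -0.08. In *tsh4* against B73, *BX5* was also up-regulated, by 3.20, while *BX3* and *BX4* had values of 0.88 and 1.05 that did not pass.

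Several enzymes and an oleosin were named after their values had been seen and stand for no group. *pck2*, a phosphoenolpyruvate carboxykinase, fell to 2.46, 2.05, and 1.41 CPM in *tsh1 tsh4*, against 10.7, 12.8, and 17.8 CPM in *tsh1*, a log2 fold change of -2.74. *wx1*, the granule-bound starch synthase, was at 23.3, 20.2, and 21.0 CPM in *tsh1 tsh4* and 45.8, 46.6, and 64.2 CPM in *tsh1*, a log2 fold change of -1.26. *ole17*, an oleosin of oil bodies, was at 22.1, 18.1, and 33.2 CPM in *tsh1 tsh4* and 65.7, 46.0, and 68.0 CPM in *tsh1*, a log2 fold change of -1.31. These genes were lower in every *tsh1 tsh4* library than in any *tsh1* library. The invertase gene *ivr2*, whose enzyme splits sucrose, moved the other way, at 4.72, 5.48, and 5.29 CPM in *tsh1 tsh4* and 1.53, 1.06, and 1.22 CPM in *tsh1*, a log2 fold change of 1.95. *aldh2*, an aldehyde dehydrogenase, was at 15.2, 8.67, and 8.66 CPM in *tsh1 tsh4* and 1.49, 1.55, and 0.933 CPM in *tsh1*, a log2 fold change of 2.92. The glutathione transferase *gst20* fell to 1.25, 1.01, and 1.67 CPM in *tsh1 tsh4*, against 9.08, 7.95, and 7.37 CPM in *tsh1*, and *gst6* rose to 1.83, 1.15, and 1.5 CPM in *tsh1 tsh4*, against 0.520, 0.349, and 0.130 CPM in *tsh1*. The call of *gst6* was lost at a pseudocount of 1, where its log2 fold change was 0.91 instead of 1.97.

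Aquaporins are channels for water and small solutes, and this group was assembled after values had been seen. They changed in both directions, with 3 of 18 up-regulated and 2 down-regulated and a median of 0.00. The share called was 27.8%, against 3.6% of all genes, but the late choice of the group makes this no evidence for the family. *PIP1-1* of the plasma membrane was at 31.6, 18.9, and 23.8 CPM in *tsh1 tsh4* and 6.58, 4.88, and 7.31 CPM in *tsh1*, a log2 fold change of 1.96. *NIP1-1* was at 27.8, 21.1, and 26.8 CPM in *tsh1 tsh4* and 3.79, 5.63, and 4.36 CPM in *tsh1*, a log2 fold change of 2.44, close to its value of 2.34 in *tsh4* against B73. *TIP2-1* of the vacuolar membrane fell to 0.627, 0.221, and 0.103 CPM in *tsh1 tsh4*, against 1.73, 1.97, and 2.28 CPM in *tsh1*. The 2 other calls were near a threshold. *pip2b* had a log2 fold change of 1.01 that was under 1 without *tsh1 tsh4* replicate 3 (0.96), *tsh1* replicate 1 (0.92), or *tsh1* replicate 3 (0.99). *NIP2-2* (-1.64) was not called without *tsh1 tsh4* replicate 2 or 3 or *tsh1* replicate 2 or 3 (-1.68 to -1.25), nor without *tsh4* replicate 3 or B73 replicate 3.

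Transcription factors with large changes came from several families. *MYB59* was nearly silent in *tsh1*, at 0.302, 0.541, and 0.239 CPM, and was at 28.2, 12.7, and 29.6 CPM in *tsh1 tsh4*. The log2 fold change was 5.64 ± 0.34 (limma, adjusted p = 2.3e-08), and it was 6.72 in *tsh4* against B73. It was the only up-regulated gene of 37 *MYB* genes, and *MYB30* was the only down-regulated one, at 0.163, 0.158, and 0.138 CPM in *tsh1 tsh4* and 1.18, 1.85, and 0.716 CPM in *tsh1*. The call of *MYB30* was lost at a pseudocount of 1 (-0.93). The *MYB* group and the *bHLH* group were both assembled after values had been seen. The shares called were 5.4% and 15.6%, against 3.6% of all genes, and with this choice they are no evidence for either family. Among 32 *bHLH* genes, 2 were up-regulated and 3 were down-regulated. The down-regulated genes were *bHLH150* (-1.83), *bHLH165* (-1.58), and *bHLH115* (-1.43), of which *bHLH115* lost its call without *tsh1 tsh4* replicate 1 (-0.89), when any of the *tsh1* libraries was left out (-1.54 to -1.35), and when any of the *tsh4* or B73 libraries was left out (-1.43). *bHLH173* rose to 12.4, 12.8, and 11 CPM in *tsh1 tsh4*, against 3.43, 3.96, and 4.90 CPM in *tsh1*. *bHLH23* was at 176, 117, and 167 CPM in *tsh1 tsh4* and 14.8, 9.68, and 26.6 CPM in *tsh1*, a log2 fold change of 3.27. Its levels were 39.9, 35.8, and 36.0 CPM in *tsh4* and 0.697, 1.11, and 3.12 CPM in B73, so that the genotypes were ordered *tsh1 tsh4*, *tsh4*, *tsh1*, and B73 with no overlap between neighbors in that order. *HSF2*, of the heat shock factor family, was at 136, 82.4, and 86.9 CPM in *tsh1 tsh4* and 17.6, 28.9, and 19.2 CPM in *tsh1*, a log2 fold change of 2.21. *nac5* was the only one called of 12 *NAC* genes, with 4.55, 3.30, and 5.07 CPM in *tsh1 tsh4* and 0.205, 1.68, and 0.239 CPM in *tsh1*. Its log2 fold change of 2.93 was 3.75 without *tsh1* replicate 2, the one *tsh1* library that was higher.

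The largest falls, taken from DEGs that averaged 1 CPM or more and had no overlap, included genes that were on in *tsh1* and nearly off in *tsh1 tsh4*. The gene table names only *grp3* and *tsh4* among the 12 largest. GRMZM2G065757 was at 0.226, 0.221, and 0.224 CPM in *tsh1 tsh4* and 245, 199, and 279 CPM in *tsh1*, a log2 fold change of -9.52. It was at 242, 219.7, and 188 CPM in *tsh4* and 296, 256, and 243 CPM in B73, so that it was lost in the double mutant and in neither single mutant. It is at place 1091 in the gene order of chromosome 6, taken from a newer assembly than that of the counts, near GRMZM2G026013 (place 1113), which the study lists beside *tsh1*. Of the 50 genes nearest to GRMZM2G026013, 3 were called (6.0%), this gene among them, and 2 passed the interaction threshold, this gene and GRMZM2G160417, which was not called. Donor DNA linked to *tsh1-ref* cannot be told apart from the mutations for genes near it. GRMZM2G456853 showed another pattern, with no reads in any *tsh1 tsh4*, *tsh4*, or B73 library and 36.1, 28.5, and 58.8 CPM in *tsh1*. Set against the floor of 3 reads, averaged over the *tsh1 tsh4* libraries, it was at least 902-fold lower in *tsh1 tsh4*. GRMZM2G120833 was at 17.5, 19.3, and 20.6 CPM in *tsh1* and at 0.094 CPM or less in every other library, and was at least 419-fold lower in *tsh1 tsh4* by the same bound. GRMZM2G000264 (-7.92) fell in both backgrounds, to 0.201, 0.095, and 0.379 CPM in *tsh1 tsh4*, against 89, 62.8, and 70.5 CPM in *tsh1*, and to 0.021, 0.056, and 6.38 CPM in *tsh4*, against 65.0, 61.2, and 74.4 CPM in B73. The library of *tsh4* replicate 3 was far above the other *tsh4* libraries for this gene.

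The other large falls were shared with the loss of *tsh4* in B73. *grp3*, a glycine-rich protein gene, was at 0.301, 0.916, and 0.862 CPM in *tsh1 tsh4* and 18.0, 12.9, and 14.1 CPM in *tsh1*, with log2 fold changes of -4.35 in the *tsh1* background and -4.21 in B73. GRMZM2G069016 was at 0.502, 0.300, and 0.293 CPM in *tsh1 tsh4* and 9.49, 16.3, and 16.9 CPM in *tsh1*, and at 2.92, 2.33, and 3.61 CPM in *tsh4* and 87.2, 67.9, and 80.3 CPM in B73. Levels were thus lower in *tsh1* and *tsh4* than in B73 and lowest in *tsh1 tsh4*, with log2 fold changes of -4.93 and -4.70. The gene is at place 1059 of chromosome 6, in a stretch where *tsh1* libraries often stood apart, and donor DNA linked to *tsh1-ref* cannot be told apart from the mutations for it. GRMZM2G126566 (-3.55), GRMZM2G406552 (-3.48), and GRMZM2G471051 (-3.38) had values of -3.59, -3.35, and -3.14 in B73. GRMZM2G406552 rested in part on *tsh1* replicate 2, without which its log2 fold change was -2.60.

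Among the 12 largest rises, only *MYB59* is named in the gene table. GRMZM2G430526 was at 10.6, 10.8, and 8.21 CPM in *tsh1 tsh4* with no reads in *tsh1*, which makes it at least 193-fold higher, and it was at 12.2, 9.63, and 7.63 CPM in *tsh4* and at 0.009, 0, and 0 CPM in B73. GRMZM2G069905 was at least 90.9-fold higher in *tsh1 tsh4*, at 5.62, 4.28, and 4.07 CPM against 0, 0.035, and 0 CPM in *tsh1*, with like values in *tsh4* and B73. Both were thus on with the *tsh4-rm* allele and off without it, whatever the state of *tsh1*. GRMZM2G045748 (at least 45.5-fold higher), GRMZM2G114639 (5.18), GRMZM2G099454 (4.84), and GRMZM2G007953 (4.69) were also higher with the allele in both backgrounds, but had more than 3 reads in some libraries without it, with up to 0.120, 0.411, 0.384, and 0.181 CPM. GRMZM2G140160 and GRMZM2G035726 were higher with the allele only in the *tsh1* background, with log2 fold changes of -0.82 and 0.01 in *tsh4* against B73. GRMZM2G140160 was at 6.02, 5.43, and 13.2 CPM in *tsh1 tsh4* and no higher than 0.177 CPM in any other library, and GRMZM2G035726 was at 1.82, 1.83, and 3.28 CPM in *tsh1 tsh4* and no higher than 0.020 CPM elsewhere, at least 45.1-fold higher than in *tsh1*.

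A pair of neighboring genes on chromosome 6, GRMZM2G163406 and GRMZM2G050412, rose together. GRMZM2G163406 was at 67.5, 80.2, and 64.4 CPM in *tsh1 tsh4* and 6.76, 2.15, and 0.586 CPM in *tsh1*, and GRMZM2G050412 was at 32.5, 55.8, and 46.5 CPM in *tsh1 tsh4* and 5.29, 1.40, and 0.369 CPM in *tsh1*. In both, *tsh1* libraries ranked in the same order and spread widely. The log2 fold changes of 5.01 and 4.82 became 5.83 and 5.71 without *tsh1* replicate 1 and 4.17 and 3.95 without *tsh1* replicate 3.

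There were 37 DEGs that also passed the interaction test, a selection that favors genes in which *tsh1 tsh4* or *tsh1* stands apart. Among them, *tsh1 tsh4* lay above all 9 other libraries for 14 genes and below all of them for 8. The *tsh1* libraries lay above the other 9 for 5 genes and below them for 10. *sid1*, a relative of the AP2 gene *indeterminate spikelet1* that acts with it in meristem determinacy, is the best known of the 37 DEGs. It was at 88.5, 69.0, and 147 CPM in *tsh1 tsh4* and at 25.2, 20.4, and 21.5 CPM in *tsh1*, a log2 fold change of 2.11 ± 0.23 (limma, adjusted p = 2.36e-05). It was at 31.3, 25.1, and 25.7 CPM in *tsh4* and 33.2, 25.6, and 23.5 CPM in B73, with no change in B73 (0.00) and an interaction of 2.10 (limma, adjusted p = 0.00548). The gene was thus high in the double mutant and level in the other 3 genotypes. It lies on chromosome 7 in a stretch of genes where *tsh1 tsh4* often stood apart. A donor segment carried there by the *tsh1 tsh4* libraries was not tested for and cannot be told apart from the mutations.

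DEGs were not spread evenly along the genome in gene order. On the newer assembly 13954 genes could be placed, 527 of them called (3.78%). On chromosome 7, which carries *tsh4*, 89 of 1141 genes were called (7.80%), against 438 of 12813 on the other chromosomes (3.42%), where shares ran from 2.67% to 4.77%. The share on chromosome 7 was 7.45% in *tsh4* against B73. With 100 genes on either side of *tsh4*, 14 of 200 were called (7.0%), and with 50 on either side, 9 of 100 were (9.0%). Among the 50 nearest genes, 7 were called (14.0%), with 1 of the 25 before *tsh4* and 6 of the 25 after it. The gene next to it, GRMZM2G419739, fell to 0.589, 0.663, and 0.414 CPM in *tsh1 tsh4*, against 6.42, 13.4, and 9.06 CPM in *tsh1*, and the one after that, GRMZM2G038051, was at 15.9, 5.56, and 9.57 CPM in *tsh1 tsh4* and 0.109, 0.192, and 0.152 CPM in *tsh1*. These neighbors changed in opposite directions, with log2 fold changes of -3.85 and 5.27, and did so again in *tsh4* against B73, with -3.40 and 5.19. The other called neighbors were GRMZM2G004990 (-1.50), GRMZM2G035999 (-2.18), GRMZM2G128935 (-3.02), GRMZM2G429118 (-1.85), and, before *tsh4*, GRMZM2G031613 (-1.06), whose value was -0.83 without *tsh1 tsh4* replicate 2 and -0.99 without *tsh1* replicate 3. Donor DNA linked to *tsh4-rm* and the loss of *tsh4* itself are carried by the same libraries and cannot be told apart here.

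**Figure D5:**
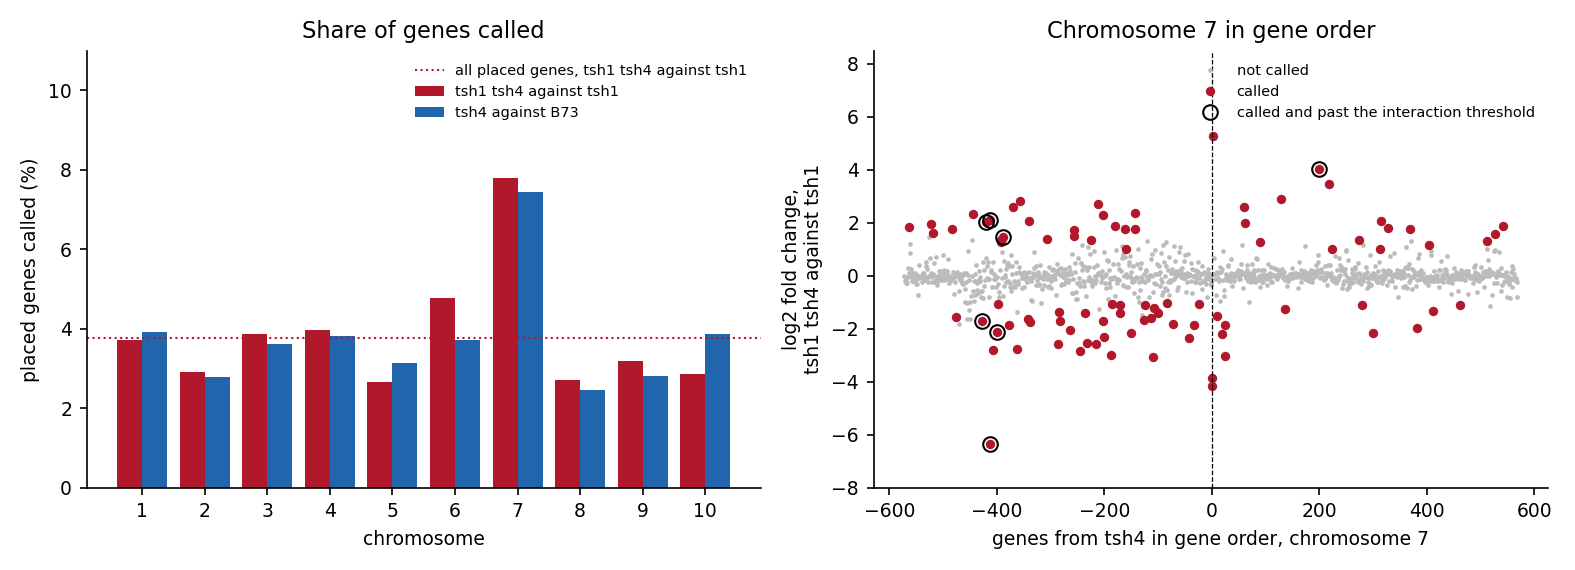
Left, percent of placed genes called on each chromosome in *tsh1 tsh4* against *tsh1* (red) and in *tsh4* against B73 (blue), with a dotted line at 3.78% for all placed genes. Right, log2 fold change in *tsh1 tsh4* against *tsh1* of the 1141 genes of chromosome 7 by their distance from *tsh4* in gene order, with called genes in red and those past the interaction threshold circled. Chromosome 7 has the highest share in both comparisons, and the circled genes lie mostly in 1 stretch before *tsh4*.

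Another 2 stretches of 50 genes held the most DEGs, and they differed in the genotype that stood apart. On chromosome 7, the stretch at places 136 to 185 of the gene order, well before *tsh4* at place 573, had 10 called genes, of which 6 passed the interaction test and 3 were called in *tsh4* against B73. The *tsh1 tsh4* libraries lay apart from all 9 others for 7 of the 10, against 220 of all 727 DEGs. Whether these libraries carry a donor segment in this stretch was not tested, and such a segment cannot be told apart from the mutations. GRMZM2G043275 was at 30.8 to 38.3 CPM in *tsh1 tsh4* and 104 to 120 CPM in *tsh1*, GRMZM2G057296 was at 3.62 to 7.17 CPM in *tsh1 tsh4* and 22.1 to 24.2 CPM in *tsh1*, and GRMZM2G079632 was at 14.0 to 18.3 CPM in *tsh1 tsh4* and 2.51 to 7.31 CPM in *tsh1*. *sid1* is at place 161 and GRMZM2G093276 at place 160. GRMZM2G093276 was at 0.502, 0.995, and 0.517 CPM in *tsh1 tsh4* and 65.1, 83.4, and 40.0 CPM in *tsh1*, and at 14.2, 13.4, and 24.2 CPM in *tsh4* and 116, 56.3, and 77.0 CPM in B73, with log2 fold changes of -6.34 and -2.25.

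On chromosome 6, the stretch at places 1023 to 1072 had 11 called genes, 2 of them past the interaction threshold and 2 called in *tsh4* against B73. Here the *tsh1* libraries lay apart from all 9 others for 9 of the 11, against 133 of all 727 DEGs, and *tsh1 tsh4* did for 2. GRMZM2G086132 was at 49.8 to 75.4 CPM in *tsh1 tsh4* and 22.8 to 26.3 CPM in *tsh1*, and GRMZM2G155686 was at 1.45 to 2.63 CPM in *tsh1 tsh4* and 10.1 to 32.3 CPM in *tsh1*. GRMZM2G026013, at place 1113 of the same chromosome, had no reads in *tsh1 tsh4* or *tsh1*, with means of 11.7 CPM in *tsh4* and 16.0 CPM in B73. Both *tsh1 tsh4* and *tsh1* carry *tsh1-ref*, and whether their libraries share the same donor segment around it was not tested. On the other chromosomes the stretch of 50 genes with the most DEGs held 4 to 7.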

How the data were processed

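RNA of laser-microdissected ear bract primordia was sequenced by the authors as single-end reads in 12 libraries, 3 for each of 4 genotypes. Per the labels and the study's methods, reads were trimmed with Trimmomatic 0.36, aligned with STAR 2.6.0a to B73 RefGen_v3 with gene models of release 31, and counted with featureCounts. What the authors deposited is a signal for each gene, namely TMM-normalized CPM from edgeR 3.22.5, for genes above 0.25 CPM in at least 3 libraries. The strand setting of the counting step is not given in the sources used here, so reads of overlapping antisense genes may be counted together. Within rounding to 3 decimals, 100% of the values corresponded to whole reads, which gave the reads behind each value. They were used for depth and for count models tried as alternatives. Columns were matched to libraries by genotype and replicate number.

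Differential expression was tested with limma 3.58.1 in R 4.3.3 (lmFit, and eBayes with an intensity trend) on log2(CPM + 0.1). All 12 libraries entered the same fit and share an estimate of the spread, and p-values were Benjamini-Hochberg adjusted across the 20168 genes. The interaction is the change in *tsh1 tsh4* against *tsh1* minus that in *tsh4* against B73, called on its adjusted p alone. The fit was tested on simulated data. P-values measure the spread among these libraries.

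Genes named are *tsh4*, *tsh1*, *ub2*, *ub3*, matched genes of the study's text, the 12 largest rises and 12 largest falls for DEGs that averaged 1 CPM or more and had no overlap, up to 4 called genes for each family, the 6 largest interactions in each direction, and called genes among the 25 on either side of *tsh4*. Other genes were named after their values had been seen. The benzoxazinoid, aquaporin, *MYB*, and *bHLH* groups were also assembled after values had been seen. The members and lists were chosen with earlier results of these data known. Of 10 maize gene names taken from the study's account of leaf expansion, meristem initiation, boundary, and auxin genes, 6 were matched. Some of the other genes that the study names were reached through the other lists. Names and gene order came from a RefSeq table (assembly Zm-B73-REFERENCE-NAM-5.0), which holds 14380 of the identifiers (71.3%). No sequences were used here, and 1 listed gene is not reported here. As alternatives, the pseudocount was set to 0.01 or 1, genes averaging under 1 CPM were removed, and other fits used the compared genotypes alone, no trend, a replicate block, equal library totals, median centering, edgeR 4.0.16 (quasi-likelihood and exact test), DESeq2 1.42.0, an adjusted p of at most 0.01, and leaving out each library.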

Additional observations from a re-analysis of the deposited data

Results flagged for a closer look

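The genes in which the loss of *tsh4* had different effects in the *tsh1* background and in B73 by the interaction test (limma, adjusted p of at most 0.05), with the largest differences on each side and *sid1*, are given with the interaction as a log2 value, positive where the change was more positive in the *tsh1* background. Those on the negative side were GRMZM2G065757 (-9.23), which was lost in *tsh1 tsh4* and lies near the *tsh1* locus in gene order, GRMZM2G456853 (-8.62) and GRMZM2G120833 (-7.51), which were on in *tsh1* alone, and GRMZM2G093276 (-4.10), which was lower in *tsh1 tsh4* than in *tsh4*. GRMZM2G066805 (-4.21) and GRMZM2G169391 (-3.42) were up-regulated in *tsh4* against B73, by 5.05 and 2.88, but not called in *tsh1 tsh4* against *tsh1*, where their values were 0.85 and -0.53. GRMZM2G066805 was at 3.05, 3.90, and 2.07 CPM in *tsh1 tsh4* and 2.31, 1.43, and 1.17 CPM in *tsh1*, and at 3.81, 2.85, and 3.61 CPM in *tsh4* and 0, 0, and 0.017 CPM in B73, so that B73 alone lacked it.

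On the positive side were GRMZM2G140160 (6.89) and GRMZM2G035726 (4.53), which were above 1 CPM in *tsh1 tsh4* alone, and *sid1* (2.10). GRMZM2G129146 (4.37) had 1.27, 2.23, and 1.36 CPM in *tsh1 tsh4* and 1.35, 0.715, and 1.32 CPM in *tsh1*, and no reads in *tsh4* against 0.936, 1.69, and 1.63 CPM in B73, so that *tsh4* alone lacked it. GRMZM2G031053 (2.99) was at 51.8, 69.5, and 56.5 CPM in *tsh1 tsh4* and 18.8, 5.23, and 6.2 CPM in *tsh1*, while *tsh4* and B73 were at 43.1 CPM or more in every library, so that *tsh1* was the low genotype. *m20* (3.99), GRMZM2G371167 (3.13), and GRMZM5G898371 (2.91) were also positive. The call of GRMZM2G371167 was lost under 11 alternatives (at values of 2.64 or more), that of *m20* under 9 (3.62 or more), and that of GRMZM5G898371 under 5 (2.73 or more), and those of GRMZM2G035726 and GRMZM2G456853 were lost in the quasi-likelihood test of edgeR alone (adjusted p = 0.434 and 1). Donor DNA near the alleles, which differs among genotypes, cannot be told apart from the mutations for genes linked to them.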

How the results depend on the processing

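The counts of DEGs in *tsh1 tsh4* against *tsh1* stayed within 1.5 times of 727 under most alternatives, at 719 with a pseudocount of 0.01, 603 with the compared genotypes alone, 730 without trend, 733 with equal library totals, 724 with median centering, and 729 (694 shared), 890, and 848 in the quasi-likelihood test, the exact test, and DESeq2. A pseudocount of 1 gave 385 genes, 414 in *tsh4* against B73, 205 called in both, and 55 on chromosome 7, and keeping genes that averaged 1 CPM or more gave 480 in *tsh1 tsh4* against *tsh1*. At an adjusted p of at most 0.01 there were 511 genes in *tsh4* against B73 and 31 past the interaction threshold, for which DESeq2 gave 157. Leaving out each library gave 570 to 734 genes in *tsh1 tsh4* against *tsh1*, 575 to 834 in *tsh4* against B73, 330 to 402 in both, 75 to 96 on chromosome 7, and 34 to 84 for the interaction (34 without *tsh4* replicate 2, 36 without *tsh1 tsh4* replicate 3, and 37 without B73 replicate 3). Correlations of deviations between *tsh1 tsh4* and *tsh1* were -0.22, -0.35, and 0.39 for the same replicate number and -0.37 to 0.51 for different numbers. These few values cannot settle whether the replicate numbers pair the libraries. The fit with the replicate number as a block gave 705 genes, 680 of them shared, and 44 for the interaction. Of the values of 105 called named genes, none reversed, and 94 of 1260 lost their call when a library was left out and 54 of 1138 in other settings. Among genes not called, log2 fold changes reversed for *tsh1* (-0.0768, -0.0685, and -0.059) and *zar1* (0.0037, 0.0022, and 0.0111) in the quasi-likelihood test, the exact test, and DESeq2. When a library was left out they ranged from -0.13 to 0.35 for *tsh1*, -0.51 to 0.15 for *zar1*, -0.048 to 0.58 for *ub2*, -0.084 to 0.58 for *ub3*, -0.037 to 0.45 for *KIN5*, -0.38 to 0.17 for *bx9*, -0.090 to 0.36 for *lg3*, and -0.56 to 0.16 for *lg4*. The causes were not tested, apart from the filter, which removes genes. Depth limits genes near the floor of 3 reads, where fold changes depend on the pseudocount.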
